A study of Mus musculus with 6 samples.

Results

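The genes described here are 10 genes known for natural killer (NK) cells: Prf1, Gzma, Gzmb, Gzmc, Ncr1, Nkg7, Il2rb, Eomes, Tbx21 and Il15. They were found by symbol, and all 10 are among the 21936 genes that the tables list. RNA of whole mouse uterus on gestational day 4, with the vaginal plug taken as day 1, was sequenced in 6 libraries. The labels give the genotype Mettl3 f/f to 3 of them and Mettl3 d/d to the other 3. The females were 6 to 8 weeks old and had been mated with fertile males in both genotypes. Mettl3 encodes the methyltransferase that makes N6-methyladenosine in RNA. The letter f usually stands for a floxed and d for a deleted allele. The sources used here do not give the driver of the deletion, the cells it reaches or the deleted exons, nor do they state that each library came from a separate animal. The p-values therefore measure the spread between these libraries, which may be technical. Mettl3 itself had 30.3, 29.8 and 26.3 FPKM (fragments scaled to gene length and to the mapped fragments of the library) in f/f replicates 1, 2 and 3, and 42.9, 30.1 and 46.5 in the d/d replicates of those numbers. It was not lower in d/d (log2 difference 0.43, limma adjusted p = 0.202), and since this value covers the whole gene it does not check the genotype labels. All directions below rest on the labels, and values by library follow replicates 1, 2 and 3 in that order.

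NK cells are innate lymphocytes that recognise other cells through activating and inhibitory receptors and release granules holding perforin and granzymes. In the uterus they live on interleukin-15, which stromal cells and macrophages make and present on the receptor chain encoded by Il15ra. They receive it through the receptor chains encoded by Il2rb and Il2rg, and the T-box factors Eomes and T-bet (Tbx21) set their identity. Around implantation, uterine NK cells multiply, fill with granules and take part in remodelling the arteries of the decidua.

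Promoter windows of 4 members are shown first. In these genes, and also in Nkg7 and Eomes, all d/d values lay below all f/f values, as they did in 17.8% of all genes tested. Prf1 and Eomes passed the filter (at least 1 FPKM in at least 3 of 6 libraries) through f/f libraries alone, which fixed this for them. No link between the sequences and the genotype difference was tested. Each window shown is the 250 bases before the RefSeq start on GRCm38.p6, 5′ to 3′ on the strand of the gene. Capitals mark TGTGGT or its complement on the other strand, the core letters that RUNX factors, which act in NK cell development, are known to bind.
Prf1, chr10:61297586-61297835, plus strand: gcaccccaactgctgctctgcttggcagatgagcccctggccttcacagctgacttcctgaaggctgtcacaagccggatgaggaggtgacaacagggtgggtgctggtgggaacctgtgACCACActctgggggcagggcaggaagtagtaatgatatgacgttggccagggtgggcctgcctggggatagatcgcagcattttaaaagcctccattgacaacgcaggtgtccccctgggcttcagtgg
Gzmb, chr14:56262335-56262584, minus strand: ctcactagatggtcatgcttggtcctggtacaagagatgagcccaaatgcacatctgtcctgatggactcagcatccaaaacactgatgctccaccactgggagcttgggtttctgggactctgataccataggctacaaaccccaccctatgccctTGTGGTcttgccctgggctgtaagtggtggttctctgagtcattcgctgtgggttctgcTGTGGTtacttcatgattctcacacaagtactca
Gzmc, chr14:56234658-56234907, minus strand: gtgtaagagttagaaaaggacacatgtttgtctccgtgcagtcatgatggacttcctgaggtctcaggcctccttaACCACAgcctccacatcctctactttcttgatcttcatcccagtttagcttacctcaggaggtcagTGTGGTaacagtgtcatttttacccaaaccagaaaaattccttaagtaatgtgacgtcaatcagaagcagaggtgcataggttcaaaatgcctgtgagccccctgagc
Ncr1, chr7:4337465-4337714, plus strand: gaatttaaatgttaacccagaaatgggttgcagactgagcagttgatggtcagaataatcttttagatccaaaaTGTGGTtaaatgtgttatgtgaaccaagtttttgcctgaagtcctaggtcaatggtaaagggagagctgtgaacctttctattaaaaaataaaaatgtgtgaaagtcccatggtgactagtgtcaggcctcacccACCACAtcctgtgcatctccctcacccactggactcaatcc
The table of promoters held 9 windows for 8 of the members, with Il2rb and Il15 missing. TGTGGT stood on either strand in 7 of these 9 windows, those of Prf1, Gzma, Gzmb, Gzmc, Ncr1 (2 windows that overlap) and Nkg7, and in 14.0% of all 32851 windows of that length. The T-box motif GGTGTGA stood in 1 member window (Nkg7) against 3.33% of all, a STAT motif in 1 (Nkg7) against 7.02%, and an IRF motif in 2 (Gzma and Eomes) against 2.98%. Both strands were searched for each. These are matches of letters, and no binding was measured here.

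Each library listed 15978 to 16359 genes above 0 and summed to 535043 to 625575 FPKM. Read numbers are not in the tables, so the absolute depth is unknown, and depths relative to f/f replicate 1, estimated from the lowest values, were 0.935 to 1.01. The 3 d/d libraries differed in their leukocyte genes. Ptprc, the CD45 gene of nearly all leukocytes, measured 13.5, 10.6 and 9.04 FPKM across f/f libraries and 14.5, 65.5 and 4.86 across d/d libraries. Thus d/d replicate 2 stood apart with high leukocyte genes, and d/d replicate 3 had the lowest Ptprc and the lowest value of each of the 10 genes. For members whose call or size rests on them, values without them follow. In whole tissue, fewer cells of a type and less RNA per cell cannot be told apart.

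In f/f uterus the members covered a wide range of levels per gene length. Gzmb averaged 27.9 ± 8.34 FPKM (SD, n = 3) and Nkg7 27.5 ± 5.46, and these did not differ beyond their spread. Gzmc, at 6.69 to 31.1 FPKM, overlapped both of them and Il15. Il15 averaged 17.8 ± 3.58, with every value below every Nkg7 value. Il2rb averaged 9.95 ± 3.36, with every value below every Il15 value, and did not differ beyond its spread from Gzma at 9.22 ± 6.21. Ncr1 at 4.16 ± 2.38, Prf1 at 3.51 ± 0.863 and Eomes at 2.45 ± 1.16 overlapped one another. Tbx21 had the lowest level, 1.03 ± 0.181 FPKM. So among granule genes Gzmb and Nkg7 were high and Prf1 low, and Tbx21 was lowest of all members.

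The gene of the pore-forming protein of cytotoxic granules, perforin, was called lower in d/d, a call that was lost without any 1 f/f library. Prf1 (ENSMUSG00000037202, chromosome 10, 61297833 to 61304680, plus strand, GRCm38) gave 4.42, 3.42 and 2.70 FPKM in f/f libraries but 0.932, 0.773 and 0.188 in d/d libraries. All d/d values lay below all f/f values. The means were 3.51 ± 0.863 and 0.631 ± 0.392 FPKM (SD, n = 3 each), a 5.57-fold lower mean in d/d. Differences are given throughout as d/d minus f/f of mean log2(FPKM + 1), and that of Prf1 was -1.48 (SE 0.26, 95% interval -2.11 to -0.86, limma adjusted p = 0.0289 over all genes tested). By exact permutation over the libraries, two-sided, p was 0.1, the smallest that 3 against 3 allow. The call was lost without f/f replicate 1, 2 or 3 (adjusted p = 0.139, 0.134 and 0.0878) and held without d/d replicate 1, 2 or 3 (0.0322, 0.0334 and 0.0378). With a pseudocount of 0.1 in place of 1 the difference was -2.47 (adjusted p = 0.051). Prf1 passed the filter on low values through its f/f libraries alone. Its lower d/d values and the lack of overlap were therefore fixed by the filter.

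Granzymes B and C had the largest differences of the 10 genes and lay just outside the threshold. Gzmb encodes the granule protease that starts apoptosis in target cells (chromosome 14, 56258838 to 56262260, minus strand). It gave 36.9, 20.5 and 26.4 FPKM in f/f libraries but 3.33, 7.10 and 0.150 in d/d libraries. The groups did not overlap, and the d/d values spread widely among themselves. The mean was 7.91-fold lower in d/d, and the log2 difference was -3.04 (SE 0.70, limma adjusted p = 0.0532, 95% interval -4.72 to -1.35, exact permutation p = 0.1). Fits that dropped d/d replicate 2 or 3 gave -3.66 or -2.25 and passed (adjusted p = 0.0247 and 0.0345). Gzmb did not pass without f/f replicate 1, 2 or 3 (adjusted p = 0.195, 0.163 and 0.165) or without d/d replicate 1 (0.0763).

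Gzmc, its neighbour on chromosome 14 (56231441 to 56234656, minus strand), encodes a granzyme known from activated lymphocytes and uterine NK cells. Its f/f libraries had 17.0, 6.69 and 31.1 FPKM, its first d/d libraries 0.854 and 3.15, and d/d replicate 3 a listed value of 0. Here too every d/d value lay below every f/f value. The log2 difference was -3.06 (SE 0.68, limma adjusted p = 0.0507, exact permutation p = 0.1), and it passed without d/d replicate 2 (-3.59, adjusted p = 0.0299). Gzmc did not pass when any other library was left out (adjusted p = 0.0838 to 0.181). Of the 50-base windows of its longest coding transcript in GENCODE M21, 4.14% occur in transcripts of other genes, chiefly Gzme and Gzmg, so a small part of its reads is uncertain.

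Gzma, the granzyme gene outside that cluster (chromosome 13, 113093825 to 113100981, minus strand), overlapped between the genotypes. It gave 14.4, 10.9 and 2.35 FPKM in f/f libraries but 6.24, 6.35 and 0.561 in d/d libraries. The low f/f replicate 3 lay under d/d replicates 1 and 2, so the groups overlapped. The log2 difference was -0.96 (limma adjusted p = 0.491, 95% interval -2.92 to 1.00, exact permutation p = 0.5), and it was -0.22 without d/d replicate 3 and -1.63 without f/f replicate 3. Whether the difference of Gzma is smaller than that of Gzmb was not tested.

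Nkg7 encodes a membrane protein of cytotoxic granules that is needed for their release (chromosome 7, 43437073 to 43438249, plus strand). It gave 33.4, 26.2 and 22.7 FPKM in f/f libraries but 11.6, 19.4 and 3.17 in d/d libraries. The groups did not overlap, though d/d replicate 2 came close to the lowest f/f value. The mean was 2.41-fold lower in d/d (log2 difference -1.46, 95% interval -2.82 to -0.09, limma adjusted p = 0.164). The log2 difference depended on the d/d libraries, with -1.95 when d/d replicate 2 was dropped (adjusted p = 0.0598) and -0.81 when d/d replicate 3 was dropped (adjusted p = 0.12).

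**Figure D1:**
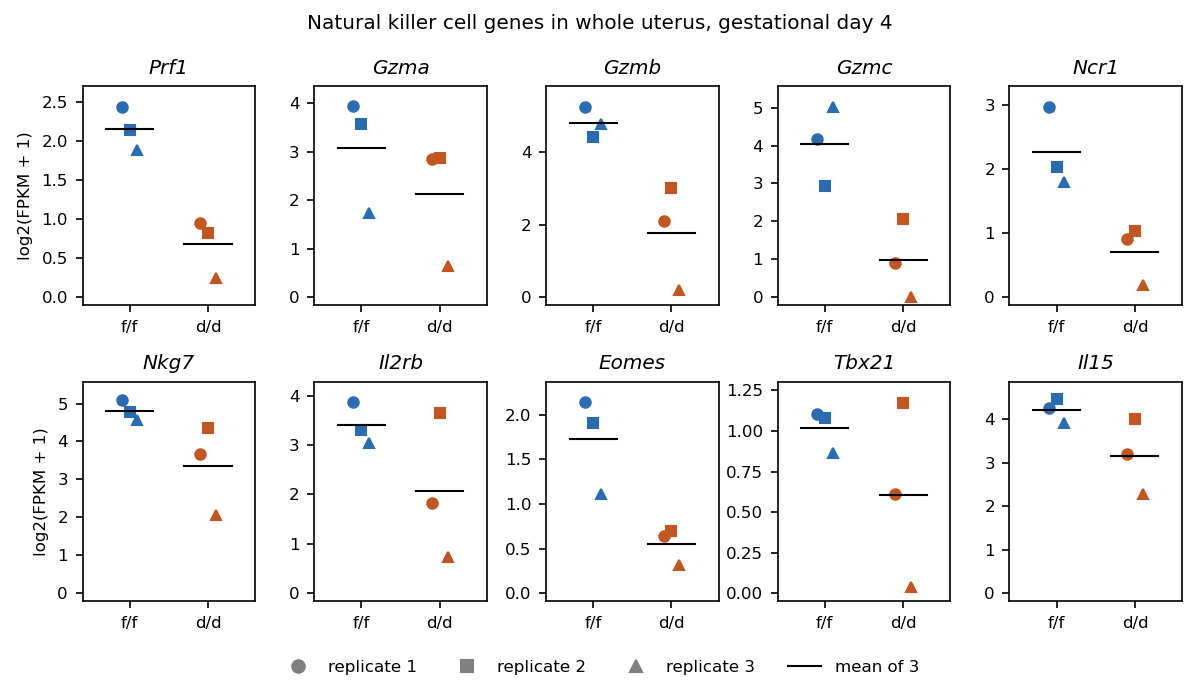
Levels of the 10 genes as log2(FPKM + 1) (y axis, scaled for each gene) in the 3 f/f (blue) and 3 d/d (orange) libraries, with lines at the group means. The d/d symbols lie below all f/f symbols for Prf1, Gzmb, Gzmc, Ncr1, Nkg7 and Eomes, and d/d replicate 3 (triangle) is the lowest library for each of the 10 genes.

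The NK cell receptor gene Ncr1 had lower values in every d/d library, without passing. Ncr1 encodes the activating receptor NKp46 (chromosome 7, 4337724 to 4345164, plus strand). It gave 6.88, 3.10 and 2.49 FPKM in f/f libraries but 0.872, 1.05 and 0.147 in d/d libraries. The groups did not overlap, the mean was 6.02-fold lower in d/d, and the log2 difference was -1.56 (SE 0.38, limma adjusted p = 0.0631, exact permutation p = 0.1). It did not pass in any fit that left out 1 library (adjusted p = 0.0603 to 0.178).

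Il2rb encodes the receptor chain shared by interleukin-2 and interleukin-15, and T cells carry it as well (chromosome 15, 78479256 to 78495271, minus strand). It gave 13.7, 8.91 and 7.24 FPKM in f/f libraries but 2.54, 11.5 and 0.670 in d/d libraries. Only d/d replicate 2 reached the f/f range, and in that library Cd3e, a T cell receptor gene, was at 15.6 FPKM against 0.491 to 4.76 in the others. The log2 difference was -1.34 with all libraries (95% interval -3.07 to 0.38, limma adjusted p = 0.283). It was -2.13, past the threshold, once d/d replicate 2 was dropped (adjusted p = 0.034), and -0.68 once d/d replicate 3 was dropped (adjusted p = 0.482). It did not pass without d/d replicate 1 or any 1 f/f library either (adjusted p = 0.395 to 0.547). The part of T cell RNA in the level of Il2rb was not tested.

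Both T-box factor genes had a negative difference, and whether it differed between them was not tested. Eomes (chromosome 9, 118478212 to 118486132, plus strand) gave 3.42, 2.77 and 1.16 FPKM in f/f libraries but 0.560, 0.621 and 0.242 in d/d libraries. These groups did not overlap, and the mean was 5.17-fold lower in d/d (log2 difference -1.17, SE 0.31, limma adjusted p = 0.0729, exact permutation p = 0.1). Like Prf1, Eomes passed the filter through f/f libraries alone, so it had to be lower in d/d without overlap of the groups. The gene also shares 574 bp with an antisense gene. Tbx21 (chromosome 11, 97098071 to 97115331, minus strand) gave 1.15, 1.12 and 0.820 FPKM in f/f libraries but 0.526, 1.25 and 0.0267 in d/d libraries. Its highest value was that of d/d replicate 2, and the groups overlapped (log2 difference -0.41, 95% interval -1.16 to 0.34, limma adjusted p = 0.444). Dropping d/d replicate 2 or 3 gave -0.69 or -0.13 for Tbx21 (adjusted p = 0.135 and 0.763). T-bet is also a factor of T cells of the type-1 kind, whose part was not tested.

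Il15, the cytokine gene on which NK cells depend, had a lower mean in d/d that did not pass. It lies on chromosome 8 (82331632 to 82403222, minus strand). It gave 18.0, 21.2 and 14.1 FPKM in f/f libraries but 8.17, 15.1 and 3.84 in d/d libraries. Here d/d replicate 2 lay above f/f replicate 3, so the groups overlapped. The mean was 1.97-fold lower in d/d, and the log2 difference was -1.05 (limma adjusted p = 0.186, 95% interval -2.10 to -0.00, exact permutation p = 0.2). Leaving out d/d replicate 2 gave -1.48, which passed (adjusted p = 0.0459). Leaving out d/d replicate 3 gave -0.61 (adjusted p = 0.239).

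Other genes of interleukin-15 signalling differed in direction. Il15ra, whose product presents interleukin-15 to neighbouring cells, gave 14.7, 15.7 and 15.2 FPKM in f/f libraries but 7.67, 11.0 and 5.51 in d/d libraries. These groups did not overlap, but the difference did not pass (log2 -0.88, SE 0.23, limma adjusted p = 0.0744). For Il2rg, the common gamma chain gene of many lymphocytes, d/d libraries spread over 20.9, 110 and 8.22 FPKM, and the f/f mean was 25.7 ± 3.01. Jak1, a kinase gene used by many cytokine receptors, averaged 59.2 ± 0.661 FPKM in f/f and 41.7 ± 10.6 in d/d (log2 difference -0.52, adjusted p = 0.135), and the signal carrier gene Stat5b averaged 11.6 ± 0.0631 and 12.2 ± 1.86 (adjusted p = 0.836).

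Cish, a feedback inhibitor gene of STAT5 signalling, rose instead, from 7.80 ± 0.485 to 18.2 ± 1.52 FPKM (n = 3 each, log2 difference 1.12, limma adjusted p = 0.0118). Il18r1, a receptor gene for interleukin-18, rose from 1.86 ± 0.761 to 11.7 ± 5.01 FPKM (log2 difference 2.10, adjusted p = 0.0245). Of 21 genes listed for interleukin-15 signalling and cytokines that act on NK cells, 15 were tested, 2 rose, 0 fell (2 lower at an unadjusted p under 0.05) and 13 did not pass. Their median log2 difference was 0.37, against 0.02 over all genes tested. Both rises were lost without f/f replicate 1, 2 or 3 (adjusted p = 0.0603 to 0.121). In whole uterus these genes are also expressed outside NK cells, and the cell that changed was not measured.

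**Figure D2:**
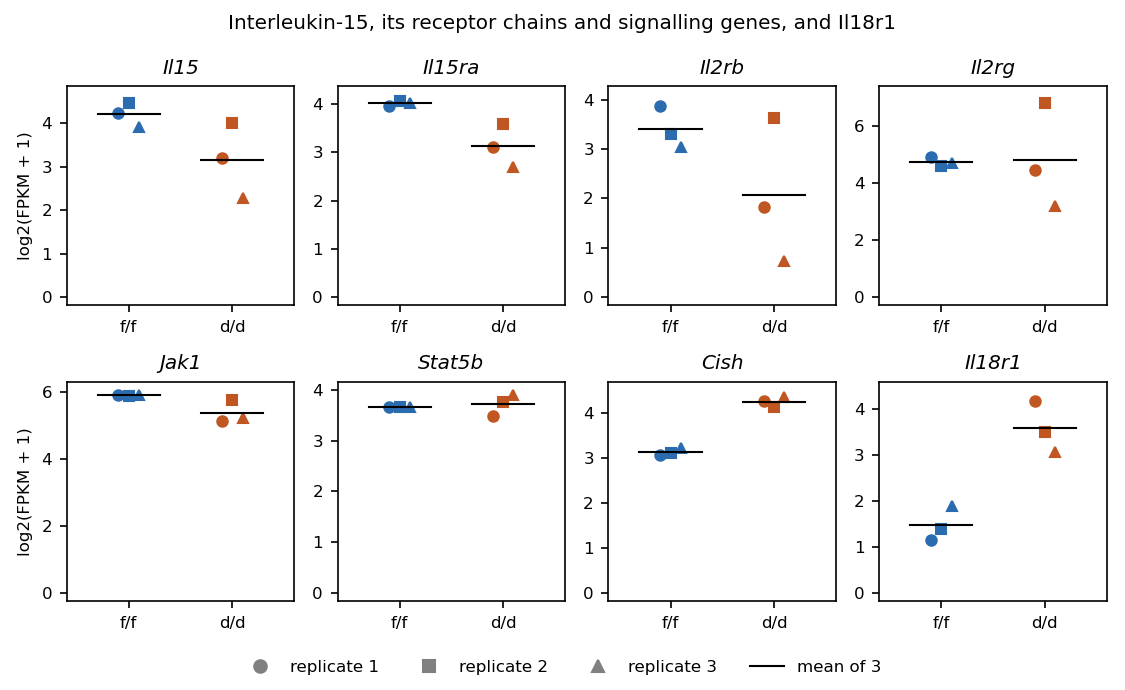
Levels as log2(FPKM + 1) (y axis) of Il15, its receptor chain genes Il15ra, Il2rb and Il2rg, the signalling genes Jak1, Stat5b and Cish, and Il18r1, in f/f (blue) and d/d (orange) libraries with lines at the group means. The d/d symbols lie below the f/f symbols for Il15ra and Jak1, above them for Cish and Il18r1, and d/d replicate 2 (square) is the highest d/d library for Il15, Il15ra, Il2rb, Il2rg and Jak1.

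Counted together, all 10 genes had a negative difference and 1, Prf1, was called lower with limma, while 0 were called higher (0 higher at an unadjusted p under 0.05). Of 12979 genes tested, 7.30% were called, 3.81% as lower and 3.49% as higher. At an unadjusted p under 0.05, 7 of the 10 were lower, against 13.6% of all genes tested (26.7% in either direction). The values did not overlap between genotypes, with d/d lower, in 6 of the 10 genes, against 17.8% of all genes. The median log2 difference of the 10 genes was -1.40. These counts hold 2 members, Prf1 and Eomes, that passed the filter through f/f alone and so had to be lower in d/d. The genes share cells and libraries, so they are not independent. The 10 genes were also chosen with earlier results of these data known. Their counts beside the shares over all genes are therefore a description and no independent comparison. The number called lower was 0 without f/f replicate 1, 2 or 3 (5 of the 10 at an unadjusted p under 0.05 in each), 1 without d/d replicate 1, 5 without d/d replicate 2 and 2 without d/d replicate 3.

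**Figure D3:**
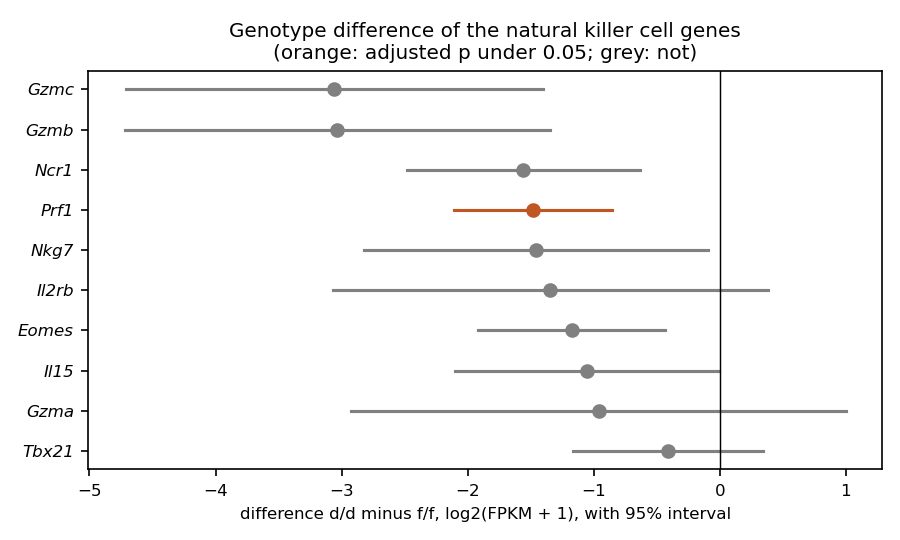
Difference between genotypes (x axis, mean log2(FPKM + 1) of d/d less that of f/f) with its 95% interval for each of the 10 genes. All points lie left of 0, from -3.06 for Gzmc to -0.41 for Tbx21, and Prf1 (orange) is the member past the threshold.

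Other granule and effector genes went in both directions. Xcl1, a chemokine gene of NK and T cells, gave 31.3, 19.5 and 18.2 FPKM in f/f libraries but 7.40, 7.37 and 1.46 in d/d libraries, with no overlap (log2 difference -2.07, limma adjusted p = 0.0667). A gene on the opposite strand shares 3884 bp with Xcl1, so its values may hold reads of that gene. Gzmf ranged from 1.64 to 5.47 FPKM over the f/f libraries, and its d/d replicates 1, 2 and 3 had a listed 0, 0.505 and 0.0879 (adjusted p = 0.0501). It passed the filter through its f/f libraries alone and so had to be lower in d/d. Its neighbours Gzmd and Gzme did not reach the filter. Gzmd had 2.08, 0.536 and 0.690 FPKM over f/f libraries, 0.158 in d/d replicate 2, and a listed 0 in the other d/d libraries. Gzme was at 0.246 to 0.410 in f/f and 0.0846 in d/d replicate 2, and was likewise listed at 0 in d/d replicates 1 and 3. These paralogs share 7.36% (Gzmf), 21.9% (Gzmd) and 20.6% (Gzme) of their 50-base windows with other genes, so their values are uncertain. Gzmf also overlaps an antisense gene by 2473 bp. Ctsc, whose protease activates granzymes and which macrophages also express, averaged 29.0 ± 4.58 FPKM in f/f and had 77.2, 284 and 63.1 in d/d (adjusted p = 0.0882). Tnfsf10, the gene of the death ligand TRAIL, rose from 14.8 ± 3.33 to 32.2 ± 7.65 FPKM (log2 difference 1.07, adjusted p = 0.0479). Of 22 listed genes, 14 were tested, 1 rose, 0 fell (2 lower at an unadjusted p under 0.05, Gzmf among them) and 13 did not pass, with a median log2 difference of 0.68. The call of Tnfsf10 was lost without any 1 f/f library (adjusted p = 0.14 to 0.148), without d/d replicate 1 (0.0663) and without d/d replicate 3 (0.0635).

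NK receptor genes went in both directions. Of 31 receptor and adaptor genes in the tables, 20 were tested, 14 had a negative difference, 1 fell, 1 rose and 18 did not pass, with a median log2 difference of -0.33. The count of 1 in each direction is near the share over all genes tested (3.81% lower and 3.49% higher). Genes with a positive difference that did not pass were Slamf7, Klrb1f, Fcgr3, Fcer1g and Tyrobp, the last 3 of which myeloid cells also express. Klrb1c, the gene of the NK1.1 receptor, gave 4.48, 2.58 and 2.28 FPKM in f/f libraries but 1.07, 1.17 and 0.177 in d/d libraries (log2 difference -1.20, limma adjusted p = 0.0775). The Ly49 receptor genes Klra4 and Klra7 also had no overlap, with means of 2.94 ± 1.35 against 0.795 ± 0.436 and 4.31 ± 2.53 against 1.28 ± 0.426 FPKM (adjusted p = 0.108 and 0.156). Klra8 fell from 2.57 ± 0.251 to 1.19 ± 0.0881 FPKM (n = 3 each, log2 difference -0.70, adjusted p = 0.0491), a call lost without any 1 library (adjusted p = 0.0555 to 0.208). It shares 33.1% of its 50-base windows with other genes of its family. Klrb1c shares 18.1%, chiefly with Gm44511, a gene that overlaps it by 8931 bp on the same strand. Klra7 shares 14.7% and Klra4 4.68%, so the values of these receptor genes are uncertain.

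Receptor genes that T cells also carry were highest in d/d replicate 2. Over the d/d libraries Klrd1 had 3.16, 13.4 and 1.18 FPKM and Klrk1 2.85, 10.7 and 0.656, so that d/d replicate 2 was above every f/f library for both. The adaptor gene Tyrobp, which macrophages express strongly, had 179, 742 and 49.5 FPKM there, with an f/f mean of 66.3 ± 8.64. Itga2, the gene of the integrin CD49b that marks circulating NK cells but is also expressed by epithelium and platelets, rose from 1.41 ± 0.292 to 8.04 ± 2.76 FPKM (log2 difference 1.86, limma adjusted p = 0.0221). That call was lost without f/f replicate 1, 2 or 3 (adjusted p = 0.118, 0.106 and 0.0919). Beside it, the epithelial marker Epcam rose from 89.6 to 281 FPKM by the group means, and the part of epithelium in the rise of Itga2 was not tested.

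Other transcription factor genes of NK cells did not pass. Of 13 listed, 10 were tested with limma, 0 passed (1 higher and 1 lower at an unadjusted p under 0.05), and the median log2 difference was 0.05. The higher one, Ikzf3, gave 5.29, 3.36 and 3.33 FPKM in f/f libraries and 8.06, 6.60 and 6.53 in d/d libraries, with no overlap (log2 difference 0.71, adjusted p = 0.0868). The lower one, Prdm1, the gene of the repressor Blimp-1, gave 12.7, 10.8 and 13.6 FPKM in f/f libraries but 5.42, 6.56 and 1.61 in d/d libraries, also with no overlap (log2 difference -1.41, adjusted p = 0.088). Nfil3, which starts NK cell development, averaged 17.6 ± 2.84 and 11.8 ± 4.47 FPKM (adjusted p = 0.249), and Id2, broadly expressed in uterus, 108 ± 21.4 and 131 ± 52.7 (adjusted p = 0.678).

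Ligands and attractants of NK cells mostly had positive differences. Of 10 tested ligand genes of NK receptors 9 had a positive difference and 0 passed with limma (2 higher at an unadjusted p under 0.05). The class I genes H2-K1 and H2-D1, whose products engage inhibitory receptors, averaged 1809 ± 435 and 371 ± 75.2 FPKM in f/f and 3949 ± 1269 and 793 ± 215 in d/d (adjusted p = 0.103 and 0.0662). Of 12 tested chemokine and receptor genes for NK recruitment, 2 rose, 0 fell (0 lower at an unadjusted p under 0.05) and 10 did not pass. Cxcl16 rose 6.28-fold, from 16.7 ± 1.05 to 105.0 ± 67.9 FPKM, and Cx3cl1 rose 2.36-fold, from 9.74 ± 0.547 FPKM to 26.9, 19.5 and 22.6 (n = 3 each, log2 differences 2.39 and 1.15, limma adjusted p = 0.0297 and 0.0177). Both calls were lost without f/f replicate 1, 2 or 3 (adjusted p = 0.0777 to 0.134). Cxcl16 was highest in d/d replicate 2, at 182 FPKM, and its log2 difference was 1.90 when that library was dropped (adjusted p = 0.0124).

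Markers of other leukocytes were high in d/d replicate 2. Of 6 macrophage markers all had a positive difference and 1, Cd68, rose (20.8 ± 4.41 to 133 ± 86.4 FPKM, limma adjusted p = 0.031, and 0.108 to 0.138 without any 1 f/f library). When d/d replicate 2 was dropped, the log2 difference of Cd68 went from 2.45 to 1.96 (adjusted p = 0.0167). The summed level of these 6 markers was 244 to 345 FPKM in f/f and 811, 2706 and 351 in d/d replicates 1, 2 and 3. For 8 T cell markers it was 7.69 to 23.5 in f/f and 15.6, 137 and 5.45 in d/d, and for 6 neutrophil markers 6.52 to 13.1 in f/f and 28.3, 1112 and 29.0 in d/d. Most of that sum in d/d replicate 3 was Ly6g (25.0 FPKM). There S100a8 (0.238), S100a9 (a listed 0) and Csf3r (1.37) were under their f/f ranges, Retnlg (0.838) within its range and Mpo (1.63) above it. The B cell marker Cd79b rose (limma adjusted p = 0.0492, lost without any 1 f/f library, 0.146 to 0.18, and without d/d replicate 3, 0.0824), but it passed the filter on low values through its d/d libraries alone and so had to be higher there. The defining markers Cd3e and Adgre1 were above 0 in all 6 libraries, while the mast cell protease gene Mcpt8 was listed at 0 in all but f/f replicate 1. The 10 genes summed to 149, 105 and 111 FPKM in f/f and to 35.7, 66.2 and 8.995 in d/d. In d/d replicate 2, which had the highest Ptprc of all libraries, Gzmb, Gzmc, Ncr1 and Nkg7 were under the f/f range. Prf1 and Eomes were under it as well, but they passed the filter through f/f libraries alone and so had to be lower in d/d.

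**Figure D4:**
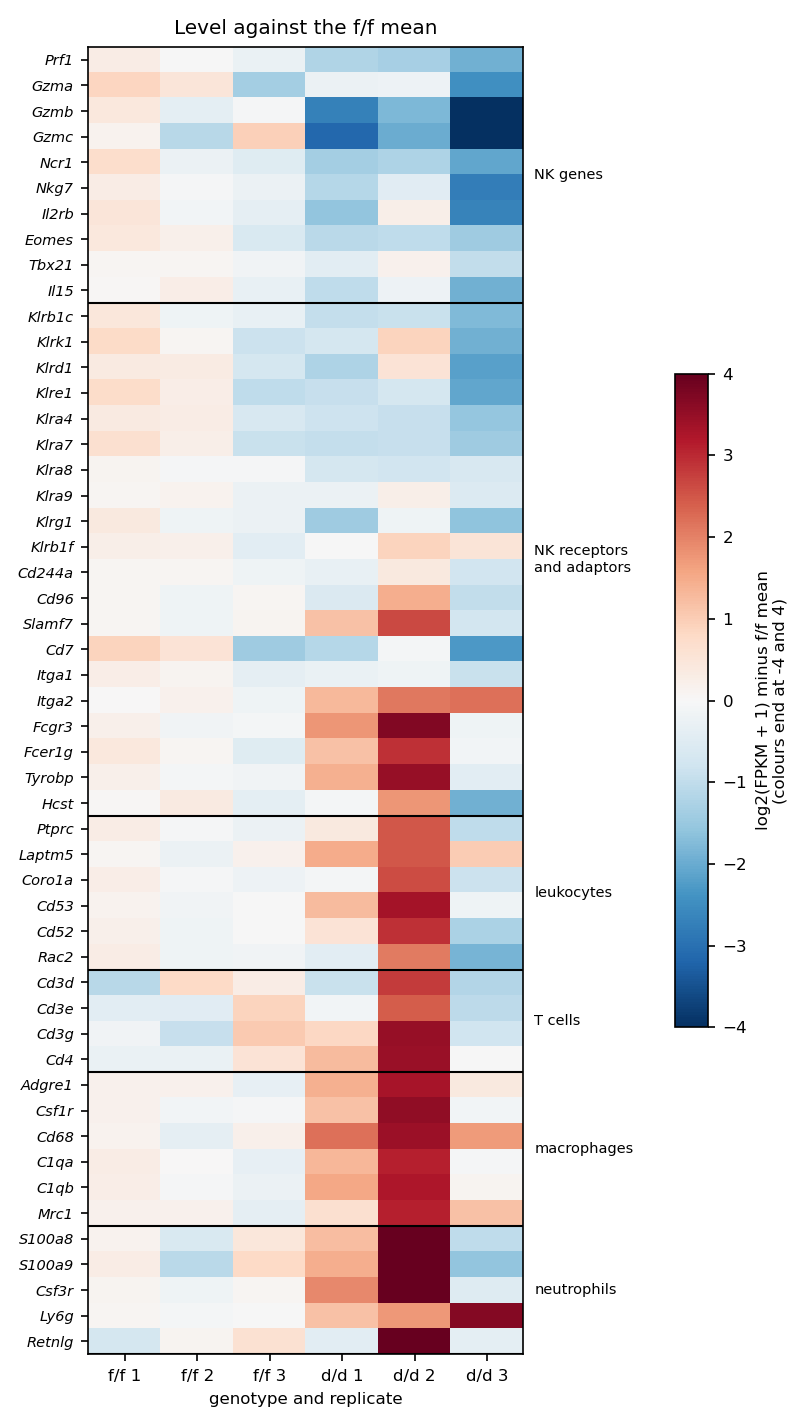
Level of each gene (rows) in each library (columns) as the difference from the f/f mean on the log2(FPKM + 1) scale, red above and blue below, with colours ending at -4 and 4. All tested genes of each list are drawn. The 10 NK genes are mostly blue in d/d, the 20 NK receptor and adaptor genes are mixed (14 with a negative and 6 with a positive difference), and markers of leukocytes, T cells, macrophages and neutrophils are red in d/d replicate 2 (Ptprc 65.5 FPKM) and mixed in d/d replicates 1 and 3.

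Set against Ptprc in the same library, all members but Gzma separated by genotype. Ncr1 per unit of Ptprc was 0.509, 0.293 and 0.275 in f/f and 0.0603, 0.0161 and 0.0302 in d/d replicates 1, 2 and 3. Nkg7 per Ptprc was 2.48, 2.47 and 2.51 in f/f, a narrow range, and 0.805, 0.295 and 0.651 in d/d. Il2rb per Ptprc was 1.01, 0.841 and 0.800 in f/f and 0.175, 0.175 and 0.138 in d/d, so the overlap of its level was not seen in the ratio. In 9 of the 10 genes all d/d ratios lay below all f/f ratios, against 6.50% of the 12979 genes tested; Gzma was the exception, with 0.259 for f/f replicate 3 and 0.431 for d/d replicate 1. These 9 include Prf1 and Eomes, which passed the filter through f/f libraries alone, so their levels had to be lower in d/d. The members were also chosen with earlier results of these data known. The ratio was chosen after the values were seen, it is a description without a test, and macrophages and T cells also add to Ptprc. In d/d replicate 2 a high Ptprc lowers each ratio. In d/d replicate 3 Ptprc was below its f/f range, each of the 10 genes had its lowest value, and all 10 ratios were under their f/f ranges. The cause of the low ratios was not tested.

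**Figure D5:**
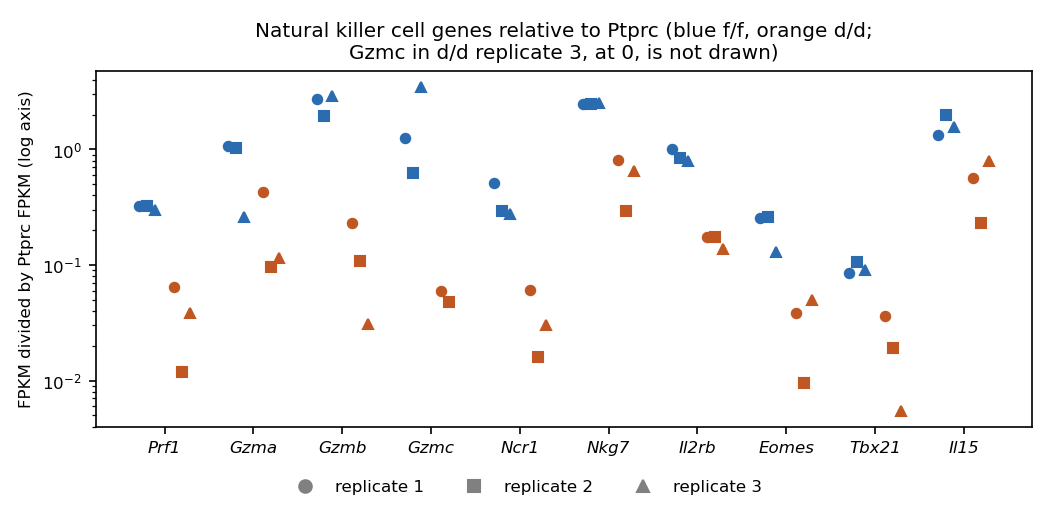
FPKM of each of the 10 genes divided by that of Ptprc in the same library (y axis, log scale), f/f in blue and d/d in orange, with symbols for the replicates. All genes but Gzma show d/d symbols below f/f symbols; Gzmc in d/d replicate 3 was listed at 0 and is not drawn.

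Markers of stroma, endothelium and epithelium also differed between the genotypes. Over all genes tested, 3.81% were called lower and 3.49% higher. Of 7 stroma markers, 3 fell (Hand2, Hoxa10 and Hoxa11) and 4 did not pass. Of those 4, Pdgfra and Vim also had all d/d values below all f/f values, while Dcn and Col1a1 overlapped and had a positive difference. Hand2, a stromal factor gene, had 65.9, 57.8 and 53.8 FPKM over f/f and 24.2, 19.0 and 11.1 over d/d libraries (limma adjusted p = 0.025, and 0.0928 to 0.127 without any 1 f/f library). The call of Hoxa10 was lost without f/f replicate 1 (adjusted p = 0.0549) and that of Hoxa11 without f/f replicate 1, 2 or 3 (0.0677, 0.063 and 0.0507). The summed stroma markers overlapped, at 1860 to 1938 FPKM in f/f and 1031, 2230 and 1448 in d/d replicates 1, 2 and 3. Of 5 endothelium markers, 1 fell (Cdh5) and all 5 had a negative difference. Their sums did not overlap, at 203 to 314 FPKM in f/f and 146, 188 and 103 in d/d. Of 5 smooth muscle markers 0 passed with limma (0 at an unadjusted p under 0.05). Of 6 epithelium markers, 1 rose (Epcam), with sums of 595 to 779 FPKM in f/f and 1297, 567 and 1901 in d/d. The decidual markers Prl8a2 and Prl3c1 were listed at 0 in all libraries, and 1 of the 3 tested markers, Wnt4, rose. The calls of Cdh5, Epcam and Wnt4 were lost without any 1 f/f library (adjusted p = 0.0811 to 0.176), and those of Cdh5 and Epcam without d/d replicate 1 (0.0564 and 0.0736). The part of stroma, endothelium or epithelium in the levels of the 10 genes was not tested.

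The genes most like Prf1 and Il15 over the 6 libraries were taken by the root mean square difference of their log2 profiles, each centred on its f/f mean, among 12622 genes. For Prf1 they were Piezo2 (0.10), Mterf2 (0.12) and Gdf10 (0.13). For Il15 they were Tspan7 (0.14), Thy1 (0.17) and Postn (0.18). Thy1 had 507, 472 and 340 FPKM over f/f and 229, 473 and 118 over d/d libraries, the same order of d/d libraries as Il15. This likeness is a description over 6 libraries.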

How the data were processed

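RNA of whole uterus was measured in 6 libraries, 3 for each labelled genotype. The authors deposited 1 table per library, whose values were taken as FPKM. No header gives the unit; it was inferred from decimals at or above 0, totals that differ between libraries, and Cufflinks. Tools named per the submitters' processing notes are HISAT2 (2.2.1) with Cufflinks (2.2.1), and mm9 stands there beside mm10 as a genome build. Which build served which step, the annotation and strand use are not stated there. Gene positions are those of GENCODE M21 (GRCm38), matched by gene ID, and promoter sequences come from RefSeq.

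Where rows shared a symbol, all but the one of highest mean were dropped (36 rows). Genes with at least 1 FPKM in at least 3 of 6 libraries (12979) were tested on the log2(FPKM + 1) scale, using limma (version 3.58.1, R 4.3.3; trend, two-sided, Benjamini-Hochberg over all genes tested, called under 0.05). The scale understates differences of low genes; folds are ratios of mean FPKM. All 10 members passed the filter. A value of 0 can be a failed estimate, so genes with a 0 are given by library. Without read numbers no counting interval can be given. Alternatives were the pseudocount, the filter, the scaling, robust variances, library weights, a replicate block and leaving out each library. The ratio to Ptprc was added after the values were seen. The motifs were T-box, STAT, RUNX and IRF. Shared reads were judged by exact matches of 50-base windows between transcripts.

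The members and lists were chosen with earlier results of these data known. The named genes are the 10 members, up to 6 genes of each other list by unadjusted p and any that passed, any cell type marker, Mettl3, and the 3 genes most like Prf1 and Il15. Gzmd, Gzme, Klrd1, Klrk1, Tyrobp, Slamf7, Klrb1f, Fcgr3, Fcer1g, Il2rg, Stat5b and Id2 are named outside that rule where they were not among the 6, chosen after their values were seen.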

Additional observations from a re-analysis of the deposited data

How the results depend on the processing

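Each of the 10 genes kept a negative difference under all 14 alternatives. The number called lower, 1 as reported, was 0 with a pseudocount of 0.1 (6 at an unadjusted p under 0.05), 2 with upper-quartile scaling, 3 with quantile normalization, 2 with library weights, and 0 to 5 with 1 library left out. Prf1 had a difference of -2.47 with that pseudocount, and -1.62 to -1.27 with 1 library left out. Gzmb passed with quantile normalization (-3.02) and library weights (-2.85), and Gzmc with upper-quartile scaling (-3.10) and quantile normalization (-3.12). With 1 library left out the differences were -3.66 to -2.25 for Gzmb, -3.61 to -2.57 for Gzmc, -2.13 to -0.68 for Il2rb and -1.48 to -0.61 for Il15. Over the other pathway lists, 6 genes were called higher and 1 lower as reported. With 1 library left out 0 to 11 were higher and 0 to 5 lower. The lower count was 0 with a pseudocount of 0.1 or robust variances, and 2 without a filter, with either scaling or with library weights. Over all genes 947 were called as reported, and 0 to 1367 with 1 library left out. The cause of these changes was not tested. Same-numbered libraries of the genotypes did not deviate together (correlations of their deviations over genes -0.02, 0.02 and -0.02), so the numbers were not taken as pairs. With the replicate block 100 genes were called, 0 members (8 at an unadjusted p under 0.05; Prf1 -1.48, adjusted p = 0.0631), and 0 genes higher and 0 lower in the other lists. The unknown depth limits what can be said of genes near or under 1 FPKM, such as Tbx21 and Gzme.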
